A study of Homo sapiens with 19 samples.

Results

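HepG2 cells that received the small interfering RNA (siRNA) siTAZ2 were compared with HepG2 cells that received a nonsense siRNA. HepG2 is an established human liver cancer cell line, and an siRNA is a short duplex that directs the breakdown of a matching mRNA. The members were chosen by sample title and are 3 siTAZ2 arrays and 3 control arrays, 6 of the 19 arrays of the series. All cultures were transiently transfected with Oligofectamine and RNA was taken 24 h later. The siTAZ2 cells received 20 nM siRNA and no other agent. The control cells received the siRNA labelled allstar, for which 1 label can be read as 40 nM and another as 20 nM. The other arrays set beside them came from cells given siTAZ3, an independent siRNA to TAZ (20 nM, n = 2), and from cells given siTAZ2 together with siYAP1, an siRNA to YAP1 (40 nM in total, n = 3). For some genes, values are also given from cells that received only siYAP1 or only siYAP2, another siRNA to YAP1 (20 nM, n = 3 each). The remaining arrays came from cells given siTAZ3 together with siYAP2 (40 nM in total, n = 2). They entered only the fits, the correlations and the means over all arrays. The control arrays were first deposited with another, earlier series and the arrays with a TAZ siRNA were not, so siTAZ2 and the deposit cannot be told apart. The labels do not say whether replicates came from separate cultures, and a p-value here therefore measures only the spread between samples, possibly a technical one.

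TAZ, encoded by WWTR1, and its relative YAP, encoded by YAP1, are transcriptional co-activators. When the Hippo kinase cascade is inactive they enter the nucleus and bind TEAD transcription factors, which recognise a short motif in promoters and enhancers. In liver, high YAP and TAZ activity is known to favour growth and a less differentiated state, and well known target genes encode matricellular and cytoskeletal proteins. The comparison shows which transcripts differ when TAZ mRNA is lowered by 1 particular siRNA.

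Values are log2 RMA values, in which a difference of 1 is a factor of 2, for 25579 genes. The median of every array was 4.83. No detection call was used, so values near that median are not shown to be above background. The hepatoma markers, 13 of 13 measured, read 6 or more in both groups, from 7.18 for KRT8 to 13.47 for APOB in siTAZ2 cells and from 7.14 to 13.39 in control cells. The endothelial markers reached 6 at 0 of 8 genes, the fibroblast markers at 1 of 10 (COL1A1) and the leukocyte markers at 2 of 9 (LYZ and CD68). LYZ averaged 13.11 in siTAZ2 cells and 13.13 in control cells, near the highest hepatoma marker. The leukocyte-defining PTPRC averaged 3.44 in siTAZ2 cells and 3.45 in control cells. None of these 27 other markers passed limma's test in either fit described below, and 1 had an unadjusted p under 0.05 in the fit with all arrays, against 3216 of all 25579 genes.

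One of the arrays stood apart and is named by its label throughout. The array labelled siTAZ2 replicate 3 had a median Pearson correlation of 0.9866 with the other arrays, whereas the medians of the other arrays were 0.9927 or more. Its highest correlations were with the siTAZ3 arrays (0.9889 and 0.9896), closely followed by control replicate 2 (0.9884) and siYAP1 replicate 1 (0.9881). Its lowest was with siTAZ2 replicate 1 (0.9843), and that with siTAZ2 replicate 2 was 0.9870. Among the 9687 genes with a mean of at least 6 over all arrays, it differed by more than 1 from the mean of siTAZ2 replicates 1 and 2 at 606 genes, 240 higher and 366 lower. Replicates 1 and 2 differed from each other by that much at 3 genes. A position was then computed for the 1104 genes that separated siTAZ2 replicates 1 and 2 from siTAZ3, with 0 at the mean of siTAZ2 replicates 1 and 2 and 1 at the mean of siTAZ3. The array labelled siTAZ2 replicate 3 had a median position of 1.1 and lay nearer to siTAZ3 at 857 of these genes (77.6%). The 3 arrays of siTAZ2 with siYAP1, in contrast, had median positions of 0.114, 0.158 and 0.144 and lay nearer to siTAZ3 at 11.2%, 12.3% and 13% of the genes. The control arrays lay between, at 57.8% to 62.1%. Single genes went both ways. AKT2, a kinase of insulin signalling, read 7.81 on this array, against 9.78 and 9.74 on siTAZ2 replicates 1 and 2 and 8.31 and 8.62 with siTAZ3. COX8A, a cytochrome c oxidase subunit, read 8.28 on it and 10.21 and 10.44 on replicates 1 and 2, and was not low with siTAZ3 (10.18 and 10.16). SDC4, a cell surface proteoglycan, read 8.53 on this array, against 11.17 and 10.97 on siTAZ2 replicates 1 and 2 and 9.05 and 9.10 with siTAZ3. IER3, an early stress response gene, read 10.07 on it, against 9.82 and 9.78 on replicates 1 and 2 and 11.02 and 11 with siTAZ3. The origin of the difference was not tested, and results are given with this array (the 19-array fit) and without it (the 18-array fit). Where a bracket gives 1 fit without naming it, it is the 19-array fit, and genes said to hold in all 7 fits, a set described below, passed in both.

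**Figure D1:**
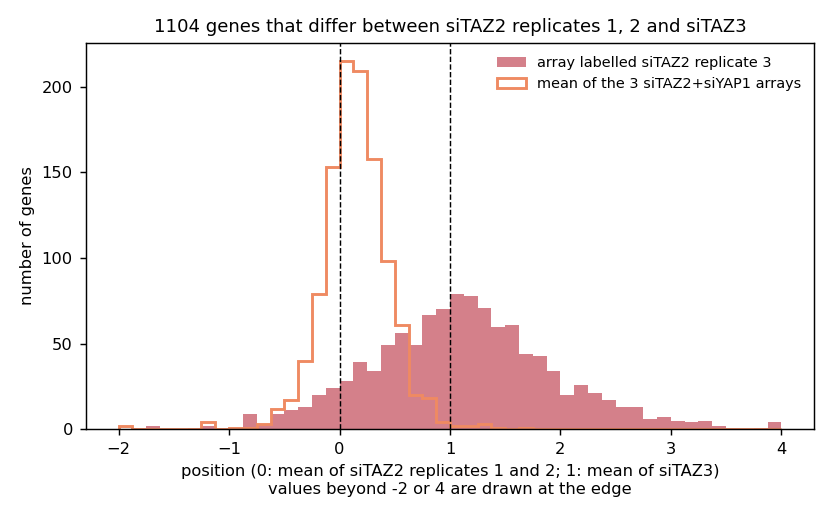
Position of arrays on the 1104 genes that separate siTAZ2 replicates 1 and 2 from siTAZ3 (x axis, 0 is the mean of siTAZ2 replicates 1 and 2 and 1 is the mean of siTAZ3; y axis, number of genes). The filled histogram of the array labelled siTAZ2 replicate 3 has its median at 1.1, and the outlined histogram of the mean of the 3 arrays with siTAZ2 and siYAP1 lies near 0.

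The targeted mRNA was low on all 3 arrays labelled siTAZ2. WWTR1, on chromosome 3, read 7.13, 7.02 and 6.77 in siTAZ2 cells, against 9.61, 9.49 and 9.54 in control cells. The groups did not overlap, and the array labelled siTAZ2 replicate 3 had the lowest value. The log2 difference was -2.57 (SE 0.11, limma adjusted p = 4.26e-09), 5.96-fold lower, and -2.47 (adjusted p = 4.91e-09) in the 18-array fit, which left 16.8% and 18% of the control level. WWTR1 is also the target of siTAZ3, where it read 6.33 and 6.61, so it does not show which of the siRNAs a culture received. In these bulk RNA samples, fewer expressing cells and less RNA per cell cannot be told apart. YAP1 read 9.67, 9.70 and 9.42 in siTAZ2 cells, against 9.87, 9.81 and 9.83 in control cells. All siTAZ2 values lay below all control values, and the difference missed the threshold (-0.24, limma adjusted p = 0.191, and -0.15, adjusted p = 0.423, in the 18-array fit). Of the 29 measured Hippo kinases, TEADs and junctional regulators 1, WWTR1 itself, passed in the 19-array fit, against 2.37% of all genes. AMOT, an angiomotin scaffold that binds YAP and TAZ, rose in the 18-array fit (5.87, 5.92 and 4.96 against 5.16, 4.89 and 4.98, adjusted p = 0.000751).

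At an adjusted p under 0.05, 606 of 25579 genes passed in the 19-array fit (2.37%), 340 higher (1.33%) and 266 lower (1.04%) in siTAZ2 cells. Without the array labelled siTAZ2 replicate 3, 1305 genes passed (5.1%), 640 higher (2.5%) and 665 lower (2.6%). The same 507 genes passed in both fits in the same direction (1.98%), 273 higher and 234 lower, and 0 passed in opposite directions. Of these 507, 452 were protein-coding genes with a siTAZ2 or control mean of at least 6. Over all arrays 9687 genes of any type had a mean of at least 6, so these calls appeared more frequent at that level. The limits differ in the arrays and the gene types used, so the comparison is rough. The shares of all genes given beside the lists below do not allow for level. Many list members had such a mean, for instance 27 of 35 plasma protein and coagulation genes. A further 5 fits each left out 1 of the other arrays of these groups. The count was 273, 322 and 308 without control replicate 1, 2 or 3, and 670 and 460 without siTAZ2 replicate 1 or 2. In the same direction 216 genes (0.844%), 109 higher (0.426%) and 107 lower (0.418%), passed in all 7 of these fits. With only the 3 siTAZ2 and 3 control arrays in the model, limma called 2 genes, WWTR1 (adjusted p = 0.00366) and CLDN6 (adjusted p = 0.0478). In that model 2266 genes had an unadjusted p under 0.05, and 1023 genes were called once the array labelled siTAZ2 replicate 3 was left out.

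ANKRD1, a widely used readout of YAP and TAZ activity that encodes an ankyrin repeat protein known from heart muscle, had one of the largest falls. ANKRD1 read 6.71, 6.70 and 7.48 in siTAZ2 cells, against 8.82, 8.84 and 8.80 in control cells. The groups were more than 1 apart, with the array labelled siTAZ2 replicate 3 nearest to control. It fell by 1.86 on the log2 scale (SE 0.17, 3.63-fold, limma adjusted p = 2.33e-05), and by 2.12 (SE 0.12, 4.34-fold, adjusted p = 6.59e-08) in the 18-array fit. Of the 26 measured YAP and TAZ target genes 4 fell and 1 rose in the 19-array fit, against 1.04% and 1.33% of all genes, and these 5 passed in all 7 fits. In the 18-array fit 8 fell and 1 rose. The median log2 difference of the list was -0.18 (18-array fit -0.12) and that of all genes was 0.

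CCN1, which encodes a secreted matricellular protein, read 5.97, 6.29 and 5.86 in siTAZ2 cells, against 6.83, 6.87 and 6.62 in control cells. It was lower on every siTAZ2 array (-0.73, limma adjusted p = 0.00468; 18-array fit -0.64, adjusted p = 0.00772). AXL, a receptor tyrosine kinase, read 7.12, 7.0 and 6.75 against 7.87, 7.63 and 7.86 and fell by 0.83 (adjusted p = 0.000961; 18-array fit -0.73, adjusted p = 0.00117). MYOF, which encodes the membrane repair protein myoferlin, read 5.33, 5.39 and 5.49 in siTAZ2 cells, not far above the array median, against 6.03, 6.0 and 5.96 in control cells (-0.59, adjusted p = 0.00526; 18-array fit -0.64, adjusted p = 0.00284). NT5E, the ecto-nucleotidase CD73, went the other way, with 7.33, 7.38 and 8.04 in siTAZ2 cells, against 6.54, 6.63 and 6.74 in control cells (0.95, adjusted p = 0.00412; 18-array fit 0.72, adjusted p = 0.0014). AMOTL2, a feedback inhibitor of YAP and TAZ, read 6.14, 5.97 and 5.84 against 6.10, 6.09 and 6.20, and the groups overlapped (-0.15, adjusted p = 0.676; 18-array fit -0.07, adjusted p = 0.904).

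For CCN2, the connective tissue growth factor gene, the call depended on a single array. It read 7.58, 7.68 and 8.94 in siTAZ2 cells, against 8.68, 8.73 and 8.82 in control cells. Replicates 1 and 2 lay below control and the array labelled siTAZ2 replicate 3 was above it, close to the siTAZ3 values of 9.06 and 8.97. The 19-array fit gave -0.68 (limma adjusted p = 0.214) and the 18-array fit -1.12 (adjusted p = 9.64e-06). The same split held for CRIM1, a transmembrane protein that binds growth factors, which read 8.63, 8.67 and 9.79 in siTAZ2 cells, against 9.67, 9.50 and 9.56 in control cells (18-array fit -0.93, adjusted p = 1.38e-06). ASAP1 (-0.77, adjusted p = 0.000316) and the tissue factor gene F3 (-0.64, adjusted p = 0.00229) also fell only in the 18-array fit.

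**Figure D2:**
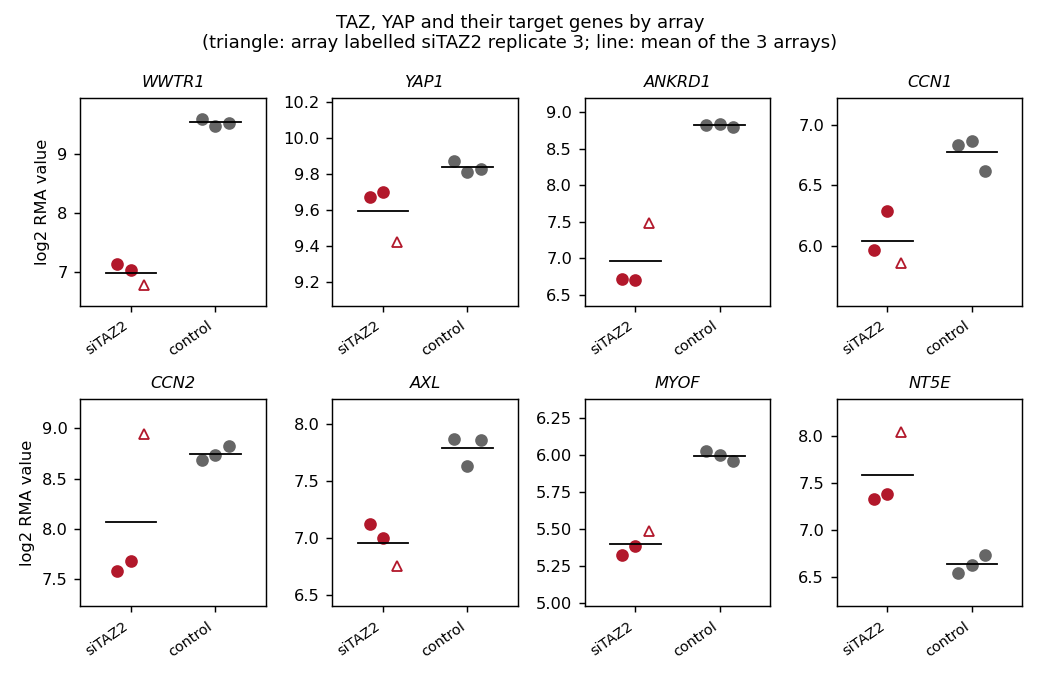
Log2 RMA values of WWTR1, YAP1 and 6 YAP and TAZ target genes in siTAZ2 cells (left) and control cells (right), 1 point per array, with lines at group means and an open triangle for the array labelled siTAZ2 replicate 3. ANKRD1, CCN1, AXL and MYOF are lower and NT5E is higher on all 3 siTAZ2 arrays, and CCN2 is lower on 2 of 3.

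The promoters of ANKRD1 and CCN2 are shown because both held the TEAD core motif more than once. The 250 bases before the RefSeq start (GRCh38.p14) are printed 5′ to 3′ on the gene's strand, with GGAATG, the reverse complement of CATTCC, in capitals. ANKRD1 lies at chr10:90921088-90921337 on the minus strand and CCN2 at chr6:131951373-131951622 on the minus strand.
ANKRD1: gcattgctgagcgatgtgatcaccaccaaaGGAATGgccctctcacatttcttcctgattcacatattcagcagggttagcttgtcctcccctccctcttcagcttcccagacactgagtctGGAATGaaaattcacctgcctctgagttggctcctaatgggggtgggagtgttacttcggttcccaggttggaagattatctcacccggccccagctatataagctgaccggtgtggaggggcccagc
CCN2: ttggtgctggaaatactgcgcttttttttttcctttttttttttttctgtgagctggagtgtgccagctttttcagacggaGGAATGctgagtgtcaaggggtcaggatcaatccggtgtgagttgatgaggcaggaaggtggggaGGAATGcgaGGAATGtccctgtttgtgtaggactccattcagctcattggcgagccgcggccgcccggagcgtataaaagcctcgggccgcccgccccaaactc
The ANKRD1 matches begin 220 and 128 bases before the start, and the CCN2 matches begin 169, 104 and 95 bases before it. Searched on both strands in windows from 250 bases before to 50 after the start, the motif occurred at least once in 14% of 35116 RefSeq promoter windows, at least 2 times in 1.37% and at least 3 times in 0.128%. AXL held 1 match, 212 bases before the second of its listed starts, and MYOF, F3 and NT5E held 0 in this window. A match is a description of the letters and not a binding site.

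Beyond WWTR1 and ANKRD1, the largest falls among protein-coding genes that were called in both fits and had a group mean of at least 6 were led by EPAS1, which encodes the hypoxia-inducible factor HIF-2 alpha. EPAS1 read 7.72, 7.85 and 9.30 in siTAZ2 cells, against 10.36, 10.34 and 10.40 in control cells. All siTAZ2 arrays were lower, and the array labelled siTAZ2 replicate 3 lay near the siTAZ3 values of 9.66 and 9.46. The log2 difference was -2.08 (SE 0.27, limma adjusted p = 0.000558) in the 19-array fit and -2.58 (SE 0.073, 6.0-fold lower, adjusted p = 5.23e-11) in the 18-array fit. CLDN6, a fetal tight junction claudin, read 8.99, 8.86 and 8.84 in siTAZ2 cells, against 9.94, 9.85 and 9.96 in control cells, with all siTAZ2 arrays alike (-1.02, adjusted p = 9.46e-06; 18-array fit -0.99). TNFRSF12A, the receptor of the cytokine TWEAK, read 9.17, 8.93 and 8.07 against 10.16, 9.87 and 9.88 (-1.25, adjusted p = 0.00438; 18-array fit -0.92, adjusted p = 0.000738). ZNF114, a zinc finger gene, fell by 1.08 and the early response gene IER3 by 1.05 (18-array fit -1.14 for both). TNS4, a focal adhesion tensin, read 6.32, 6.10 and 7.61 against 8.06, 7.78 and 8.10. It fell by 1.30 (adjusted p = 0.0179; 18-array fit -1.77, adjusted p = 1.32e-06), a call lost in 4 of the 5 fits without 1 other array, all but that without control replicate 2 (adjusted p up to 0.0793). C12orf75 (-1.27; 18-array fit -1.76) and TMEM184C (-1.20; 18-array fit -1.66) also passed in both fits, and both calls were lost in each of those 5 fits (adjusted p up to 0.0947 and 0.0864).

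Under the same limits the largest rise was that of BHMT, the liver enzyme that remethylates homocysteine with betaine. BHMT read 8.84, 8.84 and 8.47 in siTAZ2 cells, against 7.40, 7.50 and 7.48 in control cells, with no overlap. It rose by 1.26 (SE 0.11, 2.39-fold, limma adjusted p = 1.68e-05), and by 1.38 in the 18-array fit (adjusted p = 7.8e-07). PLPPR1, a membrane protein of the lipid phosphatase-related family, read 8.65, 8.63 and 8.15 in siTAZ2 cells, against 7.39, 7.17 and 7.33 in control cells (1.18, adjusted p = 3.71e-05; 18-array fit 1.34). The peroxisomal acyltransferase CROT rose by 0.98, ITGA1, the integrin alpha 1 chain, by 0.92, the translation inhibitor PDCD4 by 0.96, the sarcoglycan SGCB by 1.05 and BEX1 by 1.08. CFDP1 (1.21), VPS4B, an ATPase of membrane scission (1.09), the desmosomal cadherin DSC2 (1.04) and ZBTB41 (0.93) completed the 12 largest rises with NT5E. All of these held in all 7 fits. In the 18-array fit the differences were 1.03 for CROT, 0.86 for ITGA1, 0.87 for PDCD4, 0.97 for SGCB, 0.93 for BEX1, 1.05 for CFDP1, 0.93 for VPS4B, 0.96 for DSC2 and 0.83 for ZBTB41. Several were also high on the 6 arrays of cells given only a YAP siRNA, which belong to the deposit of the control arrays. For CFDP1 the control arrays read 7.01 to 7.38, and the arrays with a YAP siRNA read 8.12 to 8.35, near the siTAZ2 values of 8.20, 8.34 and 8.77. VPS4B read 9.27 to 9.42 and DSC2 10.15 to 10.36 on those arrays, above every control value. The same held for SGCB (7.93 to 8.10), CROT (6.99 to 7.36), ITGA1 (8.93 to 9.11) and NT5E (6.83 to 7.46). PLPPR1 ranged there from 7.40 to 8.05, next to the highest control value of 7.39. The ranges of BHMT (7.35 to 8.56), BEX1 (7.14 to 8.86), PDCD4 (5.80 to 8.14) and ZBTB41 (6.05 to 7.19) overlapped the control values.

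**Figure D3:**
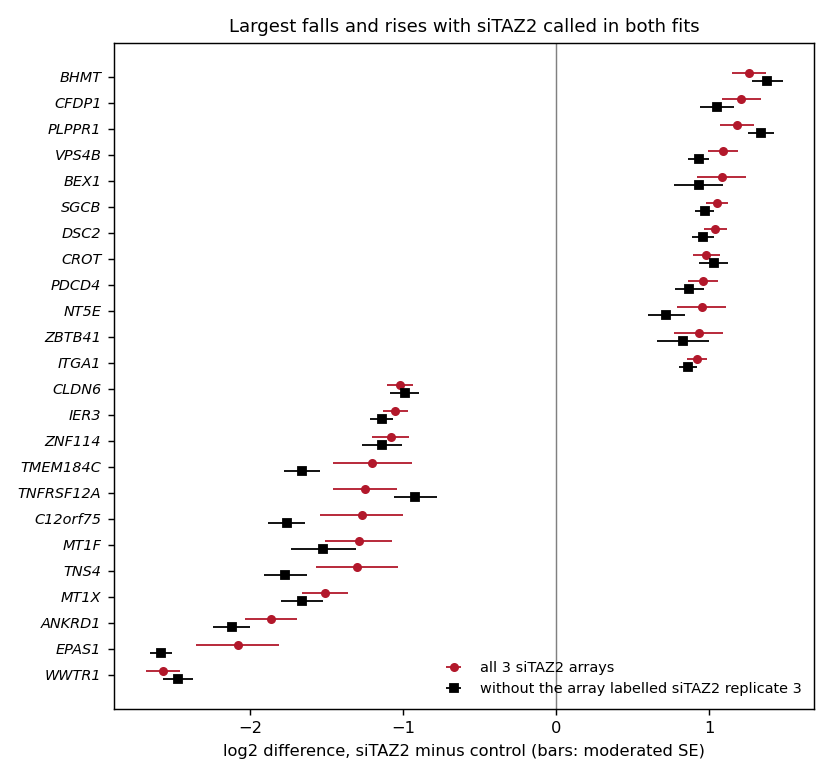
Log2 difference of siTAZ2 minus control (x axis; bars are limma's moderated SE) for the 12 largest rises and 12 largest falls of protein-coding genes with a group mean of at least 6 that passed both with all 3 siTAZ2 arrays (circles) and without the array labelled siTAZ2 replicate 3 (squares). WWTR1, EPAS1 and ANKRD1 lie lowest and BHMT highest.

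Metallothioneins are small cysteine-rich proteins that bind zinc and copper and are induced by the metal-sensing factor MTF1, and 3 of their genes fell in siTAZ2 cells in both fits. The family was taken up after its values were seen. MT1X read 8.26, 8.29 and 8.75 in siTAZ2 cells, against 9.86, 9.99 and 9.97 in control cells. MT2A read 10.43, 10.43 and 10.19 against 11.21, 11.43 and 11.29, and MT1F read 6.60, 7.04 and 7.50 against 8.14, 8.67 and 8.21. In none of the 3 genes did the groups overlap, and the array labelled siTAZ2 replicate 3 was the highest siTAZ2 array for MT1X and MT1F and the lowest for MT2A. The log2 differences were -1.51 for MT1X (limma adjusted p = 4.27e-05), -0.96 for MT2A (adjusted p = 0.000312) and -1.29 for MT1F (adjusted p = 0.00516), and all 3 passed in all 7 fits. The 18-array fit gave -1.66 for MT1X, -0.88 for MT2A and -1.52 for MT1F. MT1G read 7.35, 7.75 and 8.72 in siTAZ2 cells, against 8.71, 9.17 and 8.73 in control cells, and passed in the 18-array fit (-1.33, adjusted p = 0.000964) but not in the 19-array fit (-0.94, adjusted p = 0.0978). MT1E did the same at a level near the array median (18-array fit -0.73, adjusted p = 0.0215). MT1B, MT1H, MT1L, MT1M, MT3 and MT4 had log2 differences between -0.27 and 0.10, none of which passed.

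The metallothionein values differed between the TAZ siRNAs. MT1X read 9.73 and 9.71 with siTAZ3, and siTAZ2 was lower by 1.29 (limma adjusted p = 0.00176) in the 19-array fit and by 1.44 in the 18-array fit. Its call held without any 1 siTAZ2 or siTAZ3 array (adjusted p up to 0.0499). MT2A read 11.21 and 11.15 with siTAZ3 (siTAZ2 minus siTAZ3 -0.83, limma adjusted p = 0.00567; 18-array fit -0.75), a call lost without siTAZ3 replicate 1 or 2 (adjusted p up to 0.113). MT1F read 8.29 and 8.55 (-1.38, adjusted p = 0.0143), and lost the call without siTAZ3 replicate 1 or 2 or siTAZ2 replicate 2 (adjusted p up to 0.195). The cells that received siTAZ2 with siYAP1 read 8.42, 8.74 and 8.58 for MT1X and 10.65, 10.51 and 10.25 for MT2A, beside the siTAZ2 values.

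The promoters of MT1X and MT2A are shown because the family's metal response element, to which MTF1 binds, has a well defined core. The 250 bases before each RefSeq start (GRCh38.p14, plus strand) are chr16:56682220-56682469 for MT1X and chr16:56608334-56608583 for MT2A. Capitals mark TGCACNC or TGCGCNC, or either on the other strand, where it reads GNGTGCA or GNGCGCA.
MT1X: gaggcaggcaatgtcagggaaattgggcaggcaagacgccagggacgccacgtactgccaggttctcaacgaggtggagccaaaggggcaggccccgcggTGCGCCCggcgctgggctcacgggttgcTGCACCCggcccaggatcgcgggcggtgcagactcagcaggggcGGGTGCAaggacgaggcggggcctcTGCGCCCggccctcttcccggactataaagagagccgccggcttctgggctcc
MT2A: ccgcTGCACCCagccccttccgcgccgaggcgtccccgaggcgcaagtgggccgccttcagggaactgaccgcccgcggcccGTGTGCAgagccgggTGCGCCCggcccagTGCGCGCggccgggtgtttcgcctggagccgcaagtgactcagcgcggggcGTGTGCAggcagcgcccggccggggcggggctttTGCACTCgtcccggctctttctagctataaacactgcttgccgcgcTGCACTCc
MT1X held 4 matches, beginning 150, 122, 78 and 53 bases before the start, and MT2A held 7 in the bases shown. Across all windows 29.6% held at least 1 match, 2.3% at least 3 and 0.601% at least 4. MT1H, which read 3.70, 3.60 and 3.86 in siTAZ2 cells and 3.74, 3.51 and 3.60 in control cells, held 8 matches.

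Several immediate early genes, which are switched on within minutes by serum, growth factors or stress, fell in siTAZ2 cells. Of 25 measured, 7 fell and 0 rose in the 19-array fit, against 1.04% and 1.33% of all genes, 12 fell and 0 rose in the 18-array fit, against 2.6% and 2.5%, and 5 fell in all 7 fits. The median log2 difference of the list was -0.32 (18-array fit -0.34). FOSL1, a subunit of the AP-1 transcription factor, read 7.51, 7.74 and 7.60 in siTAZ2 cells, against 8.38, 8.07 and 8.35 in control cells (-0.65, limma adjusted p = 0.000361; 18-array fit -0.64). KLF6, a zinc finger transcription factor, read 9.57, 9.62 and 9.34 against 10.24, 10.09 and 10.14 (-0.65, adjusted p = 0.000312; 18-array fit -0.56). SRF, the serum response factor, fell by 0.43 and IER3 by 1.05, and DUSP6, a feedback inhibitor of the ERK pathway, by 0.48. MYC fell by 0.41 (adjusted p = 0.00779) and the AP-1 subunit FOSL2 by 0.39 (adjusted p = 0.0195). The 18-array fit gave -0.50 for SRF, -0.47 for DUSP6, -0.35 for MYC and -0.36 for FOSL2. Leaving out control replicate 1 ended the calls of MYC (adjusted p = 0.0508) and FOSL2 (adjusted p = 0.111). EGR1, a growth-induced zinc finger factor, read 7.19, 6.91 and 8.05 in siTAZ2 cells, against 8.26, 7.99 and 8.04 in control cells. It passed in the 18-array fit only (-1.05, adjusted p = 0.00113), as did JUN (-0.38), JUNB (-0.34), IER2 (-0.41) and ZFP36 (-0.48). SPRY4, an inhibitor of receptor tyrosine kinase signalling outside this list, fell by 0.90 (adjusted p = 8.04e-05; 18-array fit -0.95).

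In the lists of cytoskeletal and adhesion genes, calls went in both directions. Of 28 measured actin cytoskeleton and focal adhesion genes 3 fell and 0 rose in the 19-array fit, against 1.04% and 1.33% of all genes, and 4 fell and 0 rose in the 18-array fit, against 2.6% and 2.5%. The list's median difference was -0.12 (18-array fit -0.08). Of these genes 1, TAGLN2, an actin-binding transgelin, fell in all 7 fits. TAGLN2 read 5.88, 6.03 and 6.31 in siTAZ2 cells, against 7.13, 6.80 and 7.04 in control cells (-0.92, limma adjusted p = 0.000361; 18-array fit -1.03; siTAZ3 7.0 and 6.85). The vinculin gene VCL (-0.47, adjusted p = 0.0305; 18-array fit -0.32) and the zyxin gene ZYX (-0.45, adjusted p = 0.0286; 18-array fit -0.30) fell too, and both lost the call without control replicate 1 (adjusted p = 0.135 and 0.15) or 3. VCL also lost it without control replicate 2 or siTAZ2 replicate 2. FHL2, a LIM domain protein, was the fourth to fall in the 18-array fit (-0.53, adjusted p = 0.016). Of 23 integrin and matrix genes ITGA1 and THBS1 rose and ITGAV fell in the 19-array fit, and ITGA2 fell as well in the 18-array fit. The list's median was -0.01 in both fits. ITGA1 read 9.42, 9.35 and 9.56 in siTAZ2 cells, against 8.44, 8.62 and 8.52 in control cells (0.92, adjusted p = 2.36e-06; 18-array fit 0.86). ITGAV, the integrin alpha V chain, read 8.91, 9.01 and 9.92 against 10.18, 10.05 and 10.12, with the array labelled siTAZ2 replicate 3 next to control. Its fall of 0.83 (adjusted p = 0.02; 18-array fit -1.15, adjusted p = 2.79e-07) and the rise of THBS1, the matricellular thrombospondin 1 (0.31, adjusted p = 0.0351; 18-array fit 0.38), were lost in each of the 5 fits (adjusted p up to 0.0913 and 0.131). Of 18 annexin and S100 genes ANXA3, S100P and S100A16 fell by 0.52, 0.52 and 0.40, and each lost the call in 3 or more of those 5 fits (adjusted p up to 0.105, 0.128 and 0.0906). ANXA3 held it only without control replicate 3, S100A16 only without siTAZ2 replicate 1 or 2, and S100P only without control replicate 1 or siTAZ2 replicate 2. S100P also lost it in the 18-array fit (adjusted p = 0.0533), where ANXA3 (-0.59), S100A16 (-0.32) and ANXA2 (-0.96, adjusted p = 0.0334) made 3 that fell and 0 that rose. ANXA2 was near the array median, at 4.18, 4.50 and 5.67 in siTAZ2 cells, against 4.91, 5.23 and 5.76 in control cells.

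Several genes of secreted liver proteins rose by small amounts. Of 35 measured plasma protein and coagulation genes 7 rose and 0 fell in the 19-array fit, against 1.33% and 1.04% of all genes, 10 rose and 0 fell in the 18-array fit, against 2.5% and 2.6%, and 4 rose in all 7 fits. The median difference was 0.19 in both fits. FGG, the fibrinogen gamma chain, read 11.86, 12.03 and 11.82 in siTAZ2 cells, against 11.42, 11.47 and 11.54 in control cells (0.43, limma adjusted p = 0.000809; 18-array fit 0.47). FGB, the beta chain, rose by 0.47 (adjusted p = 0.00242), coagulation factor F5 by 0.40 (adjusted p = 0.00526) and SERPIND1, heparin cofactor II, by 0.33 (adjusted p = 0.00516). The 18-array fit gave 0.51 for FGB, 0.37 for F5 and 0.33 for SERPIND1. FGA, the alpha chain, rose by 0.30 and the antithrombin gene SERPINC1 by 0.48, and both lost the call without control replicate 1 (adjusted p = 0.0733 and 0.0705), SERPINC1 also without siTAZ2 replicate 2. A1BG rose by 0.33 and lost it in each of the 5 (adjusted p up to 0.196). In the 18-array fit FGA rose by 0.31, SERPINC1 by 0.54 and A1BG by 0.35. Of 17 complement genes C4BPA, CFI, CFB and C1S rose and 0 fell in the 19-array fit, and MBL2 rose too in the 18-array fit, with medians of 0.20 and 0.23. C4BPA, which encodes a chain of the C4b-binding protein, read 8.05, 8.19 and 8.0 against 7.62, 7.68 and 7.56 (0.46, adjusted p = 0.0014; 18-array fit 0.50) and held in all 7 fits. CFI (0.28; 18-array fit 0.29), CFB (0.30; 0.31) and C1S (0.49; 0.64) lost the call in 1, 4 and 5 of the 5 fits (adjusted p up to 0.0559, 0.103 and 0.142), CFI without control replicate 3 and CFB in all but that without siTAZ2 replicate 1. ALB (0.13, adjusted p = 0.374) and AFP (0.25, adjusted p = 0.32) did not pass.

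Among 27 drug metabolism enzymes 5 rose and 0 fell in the 19-array fit, against 1.33% and 1.04% of all genes, and 6 rose and 0 fell in the 18-array fit, against 2.5% and 2.6%. The list's median was 0.17 (18-array fit 0.19). UGT2B10, a glucuronosyltransferase, read 10.88, 10.87 and 11.13 in siTAZ2 cells, against 10.12, 10.29 and 10.24 in control cells (0.74, limma adjusted p = 0.000105; 18-array fit 0.66), and the alcohol dehydrogenase ADH6 rose by 0.49 (adjusted p = 0.00453; 18-array fit 0.56). Both held in all 7 fits. The sulfotransferases SULT2A1 (0.47; 18-array fit 0.59) and SULT1E1 (0.63 in both fits) rose, and both lost the call without control replicate 1 (adjusted p = 0.0645 and 0.0965), SULT1E1 also without control replicate 2 or siTAZ2 replicate 2. CYP4F12, at 4.96, 5.14 and 4.19 in siTAZ2 cells against 3.66 to 3.80 in control cells, was near the array median (18-array fit 1.30), and its call was lost in each of the 5 fits (adjusted p up to 0.112). AKR1D1, the steroid 5-beta-reductase of bile acid synthesis, read 8.12, 8.28 and 7.41 in siTAZ2 cells, against 7.06, 7.06 and 7.03 in control cells. All siTAZ2 arrays were higher and the array labelled siTAZ2 replicate 3 was the lowest of them (0.89, adjusted p = 0.00955; 18-array fit 1.15, adjusted p = 1.09e-05). Hepatocyte transcription factors passed at 0 of 19 genes in the 19-array fit with limma, where 4 of them had an unadjusted p under 0.05, against 3216 of all 25579 genes. In the 18-array fit 3 of them passed, all higher, against 2.5% of all genes, namely CREB3L3 (1.00), FOXA1 (0.59) and ONECUT2 (0.52). For these the array labelled siTAZ2 replicate 3 went the other way, at 7.39, 9.65 and 6.66, below every control array. The 19-array fit gave limma adjusted p = 0.895, 0.304 and 0.698.

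The methionine cycle, to which BHMT belongs, had calls in both directions. MAT2A, the catalytic subunit of the methionine adenosyltransferase of dividing and fetal cells, read 10.96, 10.92 and 10.78 in siTAZ2 cells, against 11.42, 11.40 and 11.39 in control cells, and fell in all 7 fits (-0.52, limma adjusted p = 8.98e-05; 18-array fit -0.46). MAT1A, the adult liver enzyme, read 9.94, 9.94 and 9.54 against 9.61, 9.55 and 9.59, and rose in the 18-array fit only (0.35, adjusted p = 0.0012). MAT2B, the regulatory subunit that binds MAT2A, read 6.84, 6.94 and 9.92 in siTAZ2 cells, against 9.31, 9.41 and 9.37 in control cells. The array labelled siTAZ2 replicate 3 was thus about 3 above the other siTAZ2 arrays and above every control array. MAT2B fell by 2.47 in the 18-array fit (5.55-fold, adjusted p = 4.91e-09), as much as WWTR1 itself, and missed the threshold in the 19-array fit (-1.46, adjusted p = 0.218). Of all 18 measured genes of the cycle and one-carbon metabolism 2 rose and 1 fell in the 19-array fit, against 1.33% and 1.04% of all genes, and 3 rose and 2 fell in the 18-array fit, against 2.5% and 2.6%. DMGDH, the second riser (0.76), lost the call in the 18-array fit (adjusted p = 0.0612).

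Of 30 measured hypoxia and glycolysis genes 4 fell and 0 rose in the 19-array fit, against 1.04% and 1.33% of all genes, and 5 fell and 1 rose in the 18-array fit, against 2.6% and 2.5%. The list's median was -0.07 (18-array fit -0.03), and EPAS1, SLC2A3 and NDRG1 fell in all 7 fits. SLC2A3, the glucose transporter GLUT3, read 8.84, 8.79 and 9.41 in siTAZ2 cells, against 10.06, 9.92 and 9.96 in control cells (-0.97, limma adjusted p = 0.000466; 18-array fit -1.17). NDRG1, a hypoxia-induced stress gene, read 8.24, 8.21 and 7.80 against 9.01, 8.82 and 8.88 (-0.82, adjusted p = 0.00143; 18-array fit -0.67). The GLUT1 gene SLC2A1 fell by 0.36 (18-array fit -0.29) and lost the call without control replicate 1 (adjusted p = 0.105), control replicate 3 or siTAZ2 replicate 2. In the 18-array fit the phosphofructokinase gene PFKP fell (-0.66, adjusted p = 0.00344) and the phosphoglucomutase gene PGM1 rose (0.31, adjusted p = 0.0147). In the list of glutathione and NRF2 redox genes GSR, glutathione reductase, read 10.57, 10.67 and 9.67 in siTAZ2 cells, against 11.19, 11.15 and 11.18 in control cells. The array labelled siTAZ2 replicate 3 was the lowest and read near siTAZ3 (9.91 and 9.86), and the fall of 0.87 (adjusted p = 0.0123; 18-array fit -0.56, adjusted p = 2.02e-05) lost its call without control replicate 1 (adjusted p = 0.0561) or 3. GSTA4, a glutathione transferase, rose by 0.45 (adjusted p = 0.00504; 18-array fit 0.41).

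In the cell cycle lists, 3 of 32 G1/S and replication genes fell and 0 rose in the 19-array fit, and 4 fell and 0 rose in the 18-array fit. Of 34 mitosis genes 2 rose and 0 fell in the 19-array fit, and 1 rose and 2 fell in the 18-array fit. Over all genes 1.33% rose and 1.04% fell in the 19-array fit, and 2.5% rose and 2.6% fell in the 18-array fit. GINS1, a subunit of the replicative helicase, read 9.75, 9.83 and 9.46 in siTAZ2 cells, against 10.29, 10.41 and 10.44 in control cells (-0.70, limma adjusted p = 0.000476; 18-array fit -0.59). UHRF1, which maintains DNA methylation at replication, read 8.75, 8.74 and 8.82 against 9.26, 9.21 and 9.31 (-0.49, adjusted p = 0.00115; 18-array fit -0.52), and both held in all 7 fits. GINS2, a partner of GINS1, fell by 0.44 (18-array fit -0.34) and lost the call without any 1 of the control arrays (adjusted p up to 0.0995). POLE2, a polymerase epsilon subunit, was the fourth in the 18-array fit (-0.33, adjusted p = 0.044). The mitotic kinase NEK2 read 8.58, 8.67 and 8.61 against 7.99, 8.06 and 8.05 (0.59 in both fits, adjusted p = 0.000282 and 0.000241). The phosphatase gene CDC25C rose by 0.31 and missed the threshold in the 18-array fit (adjusted p = 0.0658), in which PRC1 (-0.23), a spindle midzone protein, and the topoisomerase gene TOP2A (-0.25) fell. Among 21 p53 targets 3 rose and 1 fell in the 19-array fit and 6 rose and 2 fell in the 18-array fit, with medians of 0.11 and 0.25. DRAM1, a lysosomal autophagy regulator, read 7.64, 7.46 and 7.62 against 6.71, 6.90 and 6.60 (0.83, adjusted p = 4.76e-05; 18-array fit 0.81), and the 6 arrays with only a YAP siRNA read 7.60 to 8.03 for it. SESN1 (0.64; 18-array fit 0.40) and TP53I3 (0.40; 0.45) rose too and lost the call in 3 and 4 of the 5 fits without 1 other array (adjusted p up to 0.117 and 0.0882), SESN1 without any 1 control array and TP53I3 in all but that without control replicate 1. GDF15, a secreted stress cytokine, read 10.15, 10.21 and 9.63 in siTAZ2 cells, against 10.54, 10.63 and 10.61 in control cells (-0.59, adjusted p = 0.00985; 18-array fit -0.41). The p53 list had a median of -0.47 on the array labelled siTAZ2 replicate 3 relative to the other siTAZ2 arrays, against 0.01 for all genes.

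**Figure D4:**
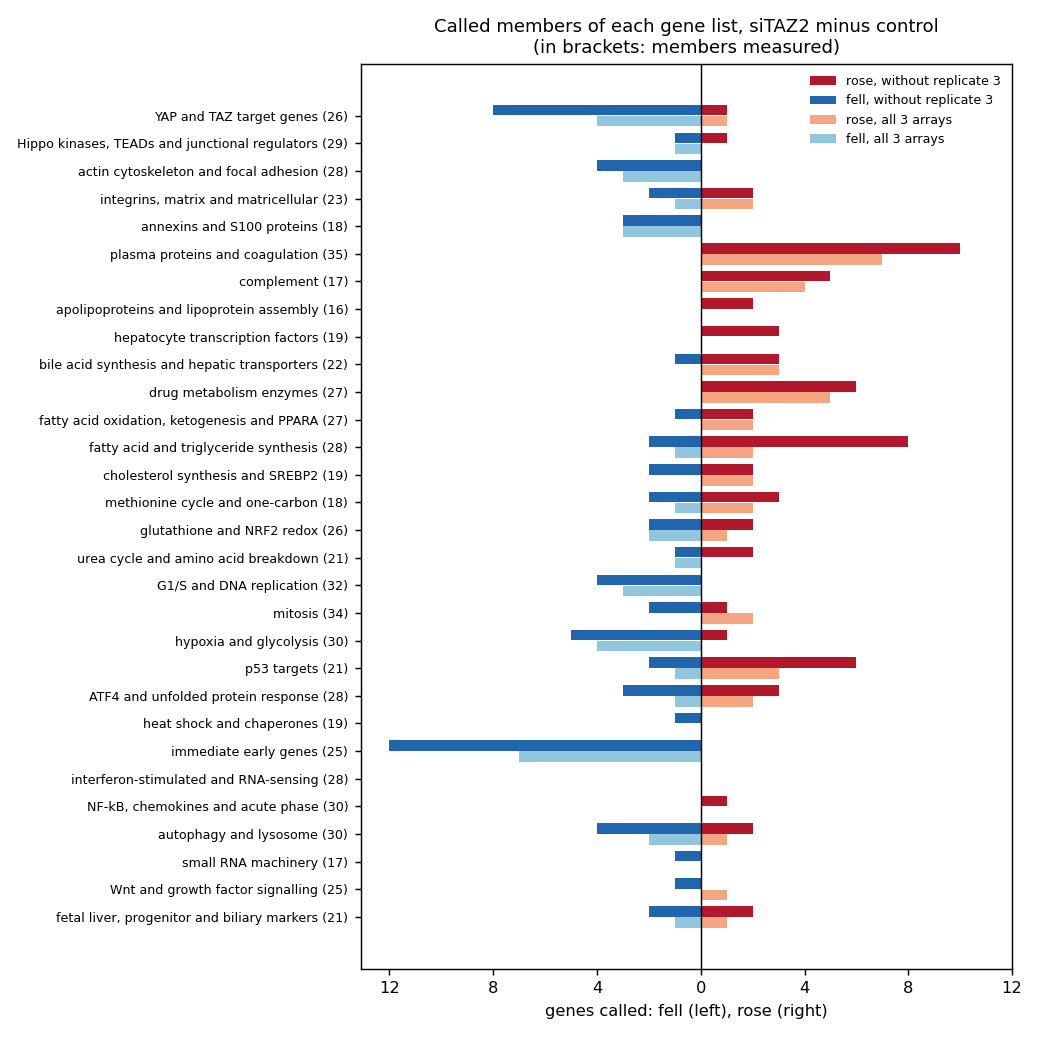
Number of genes that rose (right) and fell (left) in siTAZ2 cells relative to control cells in each gene list, with the number measured in brackets, without the array labelled siTAZ2 replicate 3 (dark bars) and with all 3 siTAZ2 arrays (light bars). Immediate early genes fell at 7 and 12 of 25 members with and without that array, and plasma protein genes rose at 7 and 10 of 35.

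Leaving out the array labelled siTAZ2 replicate 3 added 798 genes to the calls, 431 lower and 367 higher. MAT2B was the most extreme of the named ones, and CENPQ, RBMS1, LLPH, CCNC and TGFBR1 behaved alike, of which LLPH was chosen after its values were seen. CENPQ, a centromere protein, read 6.03, 5.93 and 8.77 in siTAZ2 cells, against 7.56, 8.02 and 7.88 in control cells (18-array fit -1.84, limma adjusted p = 8.9e-07; 19-array fit adjusted p = 0.498). RBMS1, an RNA-binding protein, read 6.76, 7.08 and 9.12 against 8.82, 8.60 and 8.51 (-1.72, adjusted p = 6.22e-06; 19-array fit 0.295). In both genes replicates 1 and 2 were far below control, and the array labelled siTAZ2 replicate 3 was above it. LLPH fell by 1.63, CCNC, the cyclin of the Mediator kinase module, by 1.51, and TGFBR1, the type I receptor of TGF-beta, by 1.27 in the 18-array fit. The cells that received siTAZ2 with siYAP1 gave separate readings of the same siRNA. MAT2B read 6.72, 7.07 and 6.84 in them, CENPQ 5.71, 5.91 and 6.09 and RBMS1 6.93, 7.11 and 6.56, all below every control array. With siTAZ3 MAT2B read 9.08 and 9.38, CENPQ 8.05 and 8.19 and RBMS1 8.83 and 8.63, near or above the control values.

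siTAZ2 and siTAZ3, which share target, dose and deposit, were compared directly. In the 19-array fit 208 genes passed (0.813%), 111 higher (0.434%) and 97 lower (0.379%) with siTAZ2, and in the 18-array fit 1104 (4.32%), 551 higher (2.15%) and 553 lower (2.16%). All 208 were called in the same direction in the 18-array fit. The count was 20 without siTAZ3 replicate 1, 39 without siTAZ3 replicate 2, 148 without siTAZ2 replicate 1 and 94 without siTAZ2 replicate 2. IER3 read 9.82, 9.78 and 10.07 with siTAZ2, against 11.02 and 11 with siTAZ3 (-1.12, limma adjusted p = 7.9e-05), and SPRY4 8.17, 8.22 and 8.35 against 9.11 and 9.14 (-0.88, adjusted p = 0.00106). With TNS4 (-1.41), MT1F (-1.38), MT1X (-1.29), EGR1 (-1.25), SEH1L, a nuclear pore and GATOR subunit (-1.08), and HOXD1 (-0.94) these were the 8 protein-coding genes furthest below siTAZ3 among those called in both fits with a group mean of at least 6. DIPK2A read 7.29, 7.31 and 6.69 with siTAZ2, against 5.89 and 5.90 with siTAZ3 (1.20, adjusted p = 0.00436), where the control arrays read 7.14, 7.19 and 7.05. SCML1 (1.10), CDC37L1 (1.08), ZNF468 (1.03), TMED6 (0.96), BDH2 (0.94), RASSF4 (0.92) and SEMA6A (0.88) were the other genes furthest above siTAZ3. Of these 16 calls 13 were lost without siTAZ3 replicate 1, 10 without siTAZ3 replicate 2, 7 without siTAZ2 replicate 1 and 9 without siTAZ2 replicate 2 (adjusted p up to 0.423, for BDH2). IER3, SPRY4 and MT1X held without any 1 of these arrays. ANKRD1 differed by 0.17 (adjusted p = 0.921), CCN1 by -0.07 (0.963) and BHMT by 0.06 (0.964), while AXL was lower with siTAZ2 by 0.62 (adjusted p = 0.0369; 18-array fit -0.51), a call lost without siTAZ3 replicate 1 or 2 or siTAZ2 replicate 2 (adjusted p up to 0.326). Of the 26 YAP and TAZ target genes 0 rose and 1 fell in the 19-array fit, and 2 rose and 5 fell in the 18-array fit. In the latter CCN2 (-1.39, limma adjusted p = 2.88e-06), CRIM1 (-0.99, 2.02e-06) and ASAP1 (-0.77, 0.000622) were lower with siTAZ2. EPAS1 was lower as well (-1.77, adjusted p = 9.84e-09) and WWTR1 itself was higher (0.60, adjusted p = 0.00502).

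**Figure D5:**
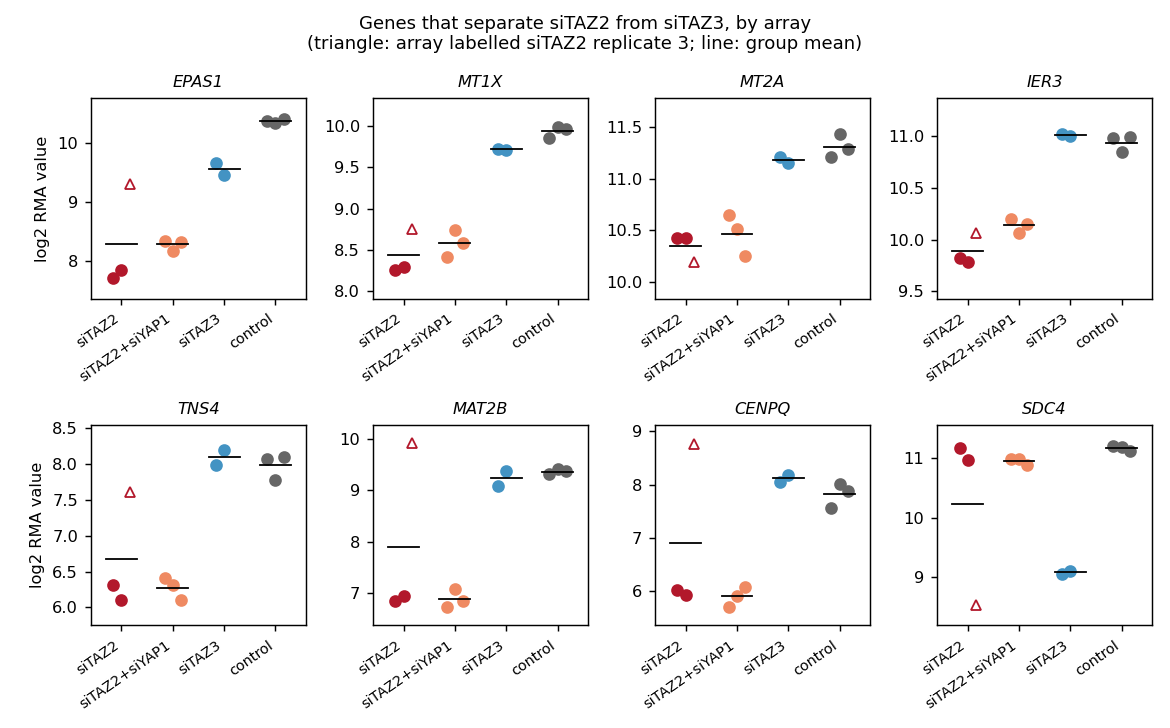
Log2 RMA values of 8 genes on each array with siTAZ2, siTAZ2 with siYAP1, siTAZ3 and control siRNA, with lines at group means and an open triangle for the array labelled siTAZ2 replicate 3. MT1X, MT2A and IER3 on that array read with siTAZ2 and below siTAZ3, and MAT2B, CENPQ and SDC4 read nearer to siTAZ3 than to the other siTAZ2 arrays.

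ANKRD1, CCN1 and CCN2 fell further where siYAP1 was added to siTAZ2. ANKRD1 read 5.02, 5.12 and 4.96 with siTAZ2 and siYAP1, against 6.71, 6.70 and 7.48 with siTAZ2 alone (-1.93, limma adjusted p = 4e-05). CCN1 read 4.85, 5.0 and 5.21 against 5.97, 6.29 and 5.86 (-1.02, adjusted p = 0.001), and CCN2 6.81, 6.58 and 6.91 against 7.58, 7.68 and 8.94 (-1.30, adjusted p = 0.0397; 18-array fit -0.86, adjusted p = 0.000949). The CCN2 call was lost without any 1 of the arrays with siTAZ2 and siYAP1 (adjusted p up to 0.21), while those of ANKRD1 (18-array fit -1.67) and CCN1 (18-array fit -1.11) were not. AXL (-0.16, adjusted p = 0.703), MYOF (-0.51, adjusted p = 0.0619), AMOTL2 (-0.33, adjusted p = 0.397), CRIM1 (-0.31, adjusted p = 0.677), ASAP1 (-0.13, adjusted p = 0.852), F3 (-0.25, adjusted p = 0.782) and NT5E (-0.10, adjusted p = 0.886) did not pass. The values of ANKRD1 and CCN1 in the doubly treated cells are near the array median and are not shown to be above background. In all, 56 genes passed between these groups (0.219%), 54 lower (0.211%) and 2 higher (0.00782%) with siYAP1 added. In the 18-array fit 99 passed (0.387%), 78 lower (0.305%) and 21 higher (0.0821%). BHMT (0.09, adjusted p = 0.846), MT1X (0.14, adjusted p = 0.804) and IER3 (0.25, adjusted p = 0.395) did not pass, and doses differed between the groups (40 nM in total and 20 nM).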

How the data were processed

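The authors deposited 1 table of log2 values for 25582 probe sets on 19 arrays, made by RMA (background correction, quantile normalization and probe summary) per the submitters' processing notes. All columns hold the same sorted values, from 3.17 to 13.78, so array medians carry no information. Detection calls and scanner files were not used here, and precision is limited by how many arrays there are. Of the probe sets 24244 carry 1 gene symbol and 1338 none, and 24195 matched RefSeq (GRCh38.p14). The 3 symbols with 2 probe sets were each reduced to 1 probe set.

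Samples were grouped by title. limma 3.58.1 in R 4.3.3 fitted 1 mean per group over all 19 arrays, and again over 18 arrays without siTAZ2 replicate 3, with Benjamini-Hochberg adjustment over 25579 genes and a threshold of 0.05. The procedure was tested on simulated data with 1 spread per gene on all arrays. No simulated array stood apart, so that test does not bear on siTAZ2 replicate 3. The named genes are fixed YAP and TAZ readouts, the 12 largest rises and falls of protein-coding genes (by RefSeq, without olfactory receptors) called in both fits with a group mean of at least 6, up to 6 called members per list, the 8 genes in each direction that set siTAZ2 replicate 3 apart most, and the 8 in each direction called between siTAZ2 and siTAZ3, both under the same coding limit. Further genes, among them the metallothioneins MT2A, MT1G and MT1E, MYOF, F3, SERPIND1, FGA, A1BG, MYC, DUSP6, FOSL2, JUN, IER2 and ZFP36, were chosen after their values were seen. The members and lists were chosen with earlier results of these data known.

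Alternatives left out 1 array at a time, kept only the groups compared, used an intensity trend or array weights, dropped the dimmest 30% of genes, repeated the normalization, centred the arrays, averaged probe sets or blocked on replicate number. The deviations of same-numbered siTAZ2 and control arrays from their group means correlated at 0.14, -0.05 and -0.02, and the numbers were not taken as pairs. This check was weak, because siTAZ2 replicate 3 shifted the siTAZ2 mean and so all siTAZ2 deviations. Their SD was 0.251 for that array, against 0.166 and 0.135 for replicates 1 and 2. A pairing is therefore not excluded.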

Additional observations from a re-analysis of the deposited data

How the results depend on the processing

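Of the results for single named genes under the alternatives, 2659 kept their direction and side of the threshold, 352 lost the call, 178 gained it and 6 turned round. Those kept include 201 results each under centring the arrays, repeating the normalization and averaging probe sets. These alternatives could change almost nothing, because all columns hold the same sorted values and only 3 symbols had several probe sets. Their results are therefore no sign of stability. A change of sign between values that both missed the threshold was not counted as turned. The 6 were APOC3 (0.42), DGAT1 (0.37), SLCO2B1 (0.44) and GPX2 (0.24) without siTAZ2 replicate 3, and APOC3 (0.42) and DGAT1 (0.37) again in the fit of only the siTAZ2 and control groups without it. Leaving out 1 array at a time gave ranges of -0.5 to 0.42 for APOC3, -0.2 to 0.37 for DGAT1, -0.27 to 0.44 for SLCO2B1 and -0.24 to 0.24 for GPX2. All 4 genes read lower on that array than on any control array. The count of 606 genes between siTAZ2 and control ran from 273 to 1305 when 1 array was left out, was 273, 322 and 308 without control replicate 1, 2 or 3, and was 1575 with array weights, where the array labelled siTAZ2 replicate 3 had a weight of 0.16. It was 2 with only these groups in the model and 1023 when that array was dropped as well. The count of 208 between siTAZ2 and siTAZ3 ran from 20 to 1104, and was 1067 with array weights, 0 with only those groups (1226 at an unadjusted p under 0.05, limma) and 509 without the array as well. The count of 56 between siTAZ2 with siYAP1 and siTAZ2 ran from 26 to 99, and was 122, 5 and 10 under the same alternatives. Of 726 distinct list genes 77 were called, against 606 of all 25579 genes (2.37%). That count had a range of 43 to 134 when 1 array was left out, and was 150 with array weights and 1 with only the compared groups. The lists were chosen with earlier results of these data known, and the share of all genes does not allow for level.

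With the replicate number as a block the count between siTAZ2 and control was 570, and with a random block within deposit 605 (consensus correlation -0.00857). The replicate numbers were not taken as pairs, so calls lost under the block are not read as weaker effects. That choice rests on a weak check of siTAZ2 and control arrays only, and numbers within the later deposit were not checked by such correlations. The deposit, the control dose and the siRNA differ together between siTAZ2 and control cells and cannot be told apart. Levels near the array median may be background, and 3 arrays per group, 1 of them apart, limit what could be called.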

Other observations

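Genes of protein quality control and lysosomes were among those that moved. OSTM1, a lysosomal chloride transport subunit, read 8.52, 8.40 and 8.11 in siTAZ2 cells, against 9.18, 9.15 and 9.13 in control cells (-0.81, limma adjusted p = 0.00626; 18-array fit -0.69). ATG16L1, which directs the lipidation step of autophagy, read 8.46, 8.51 and 8.23 against 9.10, 9.14 and 8.96 (-0.67, adjusted p = 0.000312; 18-array fit -0.58). With siTAZ3 OSTM1 read 7.87 and 7.89 and ATG16L1 8.18 and 8.28, and siTAZ2 minus siTAZ3 did not pass (0.46, adjusted p = 0.312, for OSTM1 and 0.17, adjusted p = 0.663, for ATG16L1). Of 30 autophagy and lysosome genes 1, VPS4B, rose and these 2 fell in the 19-array fit, against 1.33% and 1.04% of all genes, and 2 rose and 4 fell in the 18-array fit, against 2.5% and 2.6%. EDEM1, which recognises misfolded glycoproteins in the endoplasmic reticulum for degradation, read 6.86, 6.94 and 7.43 against 7.63, 7.92 and 7.71 (-0.68, adjusted p = 0.00709; 18-array fit -0.85) and was not low with siTAZ3 (7.89 and 7.82). The secreted stress factor MANF rose by 0.49 (adjusted p = 0.00558; 18-array fit 0.39). OSTM1, ATG16L1, EDEM1 and MANF held in all 7 fits. PDIA4 rose too (0.22), a call lost in the 18-array fit (0.20, adjusted p = 0.0551) and in each of the 5 fits without 1 other array (adjusted p up to 0.156). Of 28 ATF4 and unfolded protein response genes 2 rose and 1 fell in the 19-array fit, and 3 rose and 3 fell in the 18-array fit.

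Lipid genes depended on the array labelled siTAZ2 replicate 3. Of 28 genes of fatty acid and triglyceride synthesis 2 rose and 1 fell with it, and 8 rose and 2 fell without it, against 2.5% and 2.6% of all genes in the 18-array fit. GPAT3, an acyltransferase of triglyceride synthesis, read 6.98, 6.92 and 6.73 in siTAZ2 cells, against 7.63, 7.49 and 7.46 in control cells, and fell in all 7 fits (-0.64, limma adjusted p = 0.000937; 18-array fit -0.57). The desaturase FADS1 read 11.33, 11.17 and 10.68 against 10.73, 10.73 and 10.88, with that array below control (18-array fit 0.47, adjusted p = 0.000684). In cholesterol synthesis SQLE, squalene epoxidase, read 9.93, 10.02 and 11.05 against 10.47, 10.48 and 10.53, so that array was the highest and the others the lowest of the 6 (18-array fit -0.52, adjusted p = 2.83e-05). With siTAZ2 and siYAP1, SQLE read 10.30, 10.38 and 10.36. Among apolipoprotein genes 0 of 16 passed in the 19-array fit (3 at an unadjusted p under 0.05, limma, against 3216 of all 25579 genes), and APOC3 and LCAT rose in the 18-array fit.

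Interferon-stimulated and RNA-sensing genes, which a transfected duplex could induce, passed at 0 of 28 members in both limma fits, with 8 and 5 at an unadjusted p under 0.05. Across all 25579 genes 2.37% and 5.1% passed in these fits, and 3216 and 3717 genes had an unadjusted p under 0.05. A count of 0 in a list this small is near those shares. The NF-kB, chemokine and acute phase list passed at 0 of 30 (5 unadjusted) in the 19-array fit and had CCL16 higher in the 18-array fit. Heat shock genes and the small RNA machinery passed at 0 of 19 (4 unadjusted) and 0 of 17 (3 unadjusted), with HSPA1A and TNRC6B lower in the 18-array fit. In the fetal, progenitor and biliary list KRT19, a biliary keratin, read 10.22, 9.98 and 9.94 in siTAZ2 cells, against 10.59, 10.48 and 10.50 in control cells (-0.48, limma adjusted p = 0.0116; 18-array fit -0.42). Its call was lost without control replicate 1 (adjusted p = 0.0671), and that of the cadherin CDH2, which rose by 0.28 (18-array fit 0.25), in all of the 5 fits but that without siTAZ2 replicate 1 (adjusted p up to 0.107). DKK4, a Wnt antagonist, rose by 0.68 in the 19-array fit and missed the threshold in the 18-array fit (adjusted p = 0.0563). In urea cycle and amino acid breakdown GOT1 fell by 0.24 (18-array fit -0.23), a call lost in all of the 5 fits but that without siTAZ2 replicate 1 (adjusted p up to 0.178), and GLUL and ASS1 rose in the 18-array fit (0.61 and 0.35).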
